A study of Mus musculus with 3 samples.

Results

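The genes described here are 10 mouse genes of epithelial cell junctions and the epithelial cytoskeleton: Cdh1, Epcam, Cldn3, Cldn4, Cldn7, Cldn18, Ocln, Tjp1, Krt8 and Krt18, out of 21887 protein-coding genes on assembled chromosomes. For each gene every peak was taken that touched the gene body or the 20 kb on either side of it (GRCm38). This gave 52 of the 31165 deposited ETV5 peaks and 17 of the 15134 deposited H3K4me3 peaks. Cldn3 with Cldn4, and Krt8 with Krt18, are neighbours, so that 5 ETV5 peaks and 1 H3K4me3 peak belong to 2 windows each. Chromatin came from AT2 cells (alveolar type II, of the lung) isolated from C57BL/6 mice aged 10 to 12 weeks, with no genetic change or treatment named in the labels, and was fixed with formaldehyde. There are 3 samples: 1 library precipitated with a Proteintech antibody to the transcription factor ETV5, 1 with an Abcam antibody to histone H3 carrying trimethylated lysine 4 (H3K4me3), and 1 input without antibody. The labels do not say how many mice gave cells to each library. The ETV5 list rests on 5715049 tags and the H3K4me3 list on 34907608. With 1 library per antibody there was no replicate check and no test, RNA was not measured, and all intervals below (exact, 95%) cover counting error only.

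AT2 cells make and recycle surfactant and renew the alveolar epithelium, and they are joined to the flat alveolar type I cells by a continuous belt of junctions that keeps the air space dry. In the tight junction, claudins and occludin are the membrane proteins that seal the space between cells, and ZO-1, the product of Tjp1, ties them to actin. In the adherens junction E-cadherin, the product of Cdh1, binds its like on the next cell, and EpCAM is a separate adhesion protein of epithelia. Keratins 8 and 18 pair into the filaments of simple epithelia. ETV5, a member of the ETS family, is induced by FGF signals through ERK in many tissues. It binds DNA around the letters GGAA, and H3K4me3 marks active promoters.

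All 10 genes had at least 1 ETV5 peak in their window, against 68.6% of all protein-coding genes, and all 10 had an H3K4me3 peak, against 66.0%. An ETV5 peak overlapping H3K4me3 was found in all 10 windows, against 62.5%. An ETV5 peak of fold enrichment of at least 10 was also present in all 10, against 51.5%. Fold enrichment is the authors' value for each peak, the number of overlapping fragments at its summit (the pileup) over the local input background, with 1 added to both. The median over the genes of the highest ETV5 fold was 28.7, against 16.9 over all genes with a peak, and that of the highest H3K4me3 fold was 43.0, against 38.4. Several of these highest peaks lay nearer to another gene, and with only the peaks that lay nearest to the gene itself the ETV5 median was 15.2. Within gene bodies alone it was 12.2, and neither of these was computed over all genes. At start windows the order was the opposite: among genes with an ETV5 peak over one, the median ETV5 fold was 12.4 for the junction and keratin genes and 14.3 for all genes. Windows with many peaks were those of Cldn3 (12 ETV5 peaks), Cdh1 (10) and Krt8 (10), and the Epcam window held a single one. At least as many were found for 2.29% (Cldn3) and 4.20% (Cdh1 and Krt8) of all genes. Windows differ in length, and at least as many per kb were found for 0.612% (Cldn3), 13.1% (Cdh1) and 2.06% (Krt8).

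**Figure D1:**
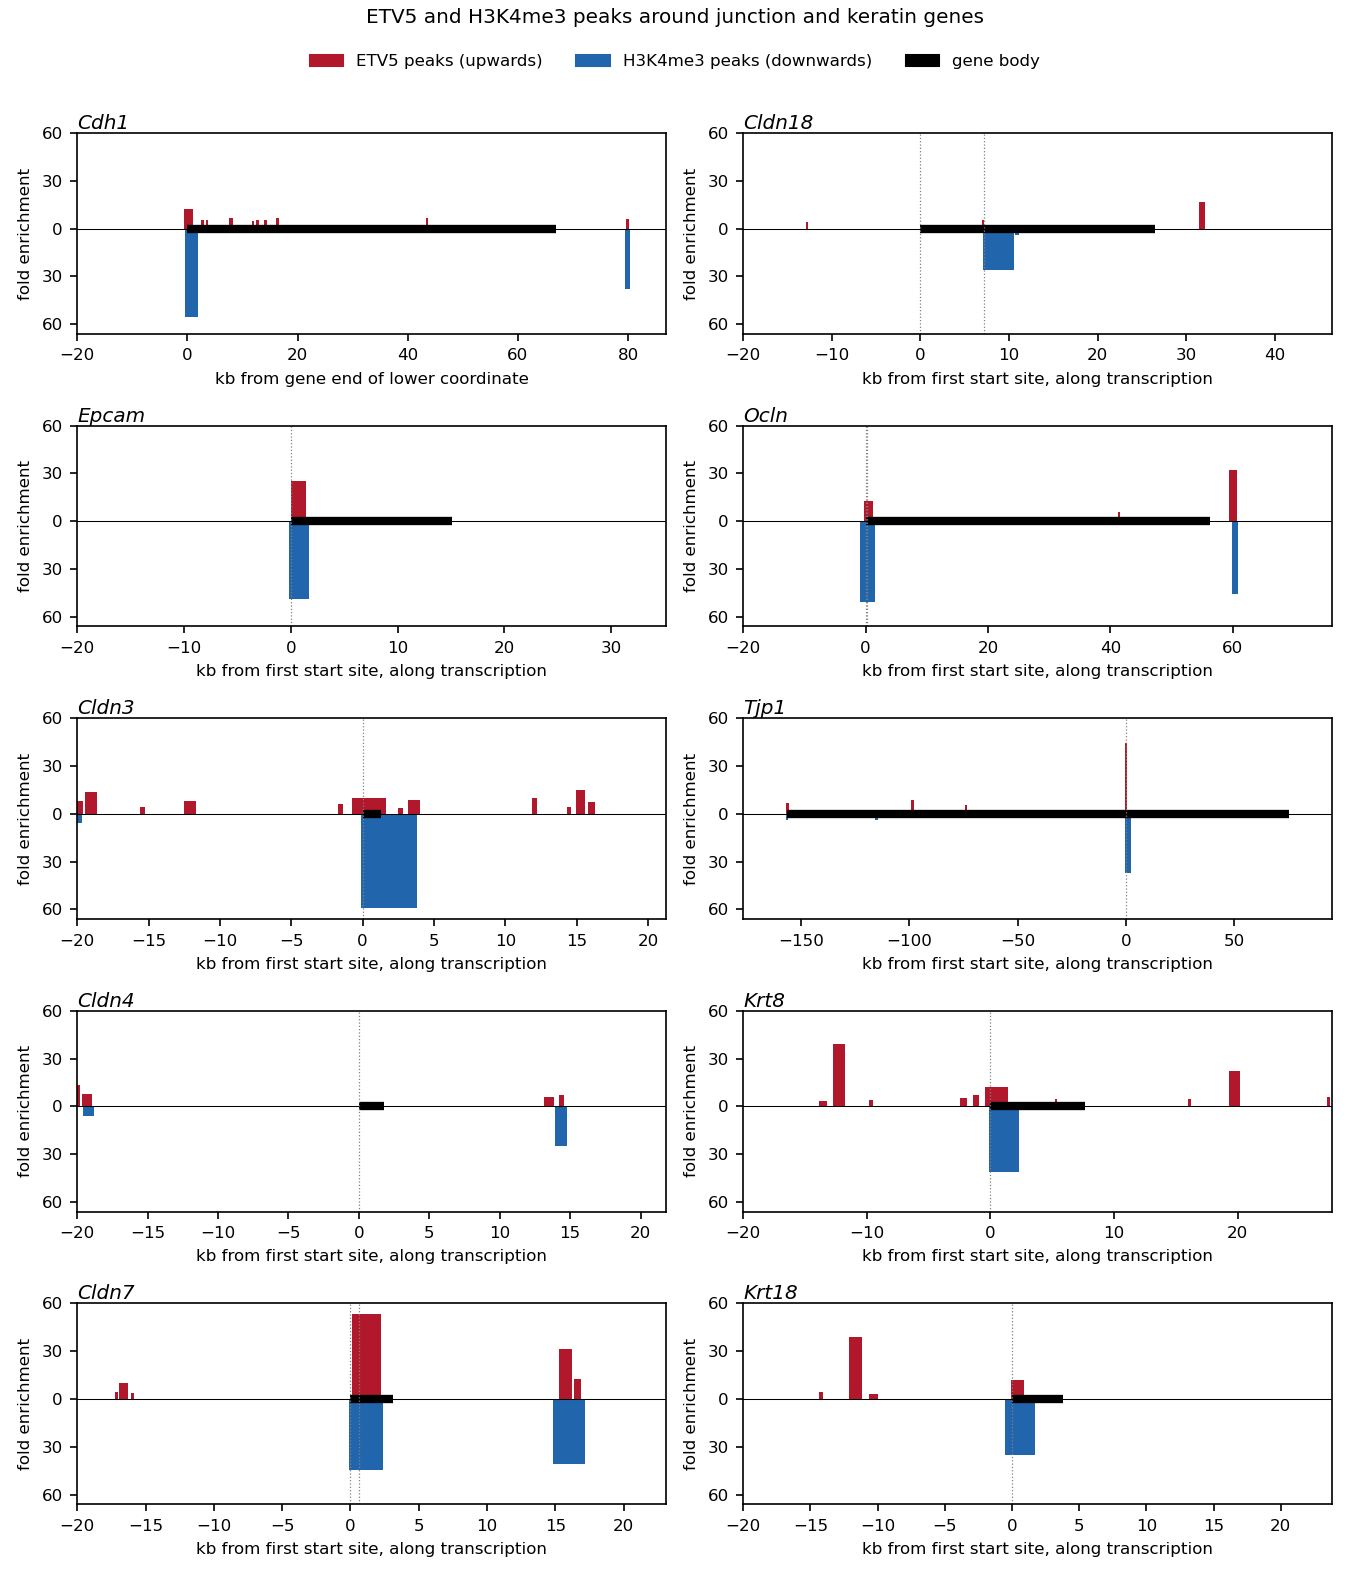
Peaks in the gene body and 20 kb on each side of the 10 genes, with distance in kb on the horizontal axis (0 is the first annotated start site, dotted lines are start sites; for Cdh1, 0 is the gene end of lower coordinate) and fold enrichment on the vertical axis, ETV5 upwards in red and H3K4me3 downwards in blue. Bar width is peak width (with a minimum drawn width) and the black bar is the gene body. At 9 genes an H3K4me3 peak with an ETV5 peak stands at a start site or gene end inside the body, and the Cldn4 gene has neither.

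RefSeq promoter windows, from 250 bases before to 50 after a start site, were at hand for 9 of the genes (12 windows) and not for Cdh1. H3K4me3 covered a start window of 8 of the 9, against 53.3% of 17492 genes with such windows, and ETV5 covered one of the same number, 8, against 51.5%. The gene without either was Cldn4. Both were present over start windows of 48.5% of genes, whether or not over the same one. Of the 9330 genes with H3K4me3 over a start window, 8492 also had ETV5 over one, so ETV5 at the 8 marked genes was the common case. For Cdh1, the H3K4me3 peak and the strongest ETV5 peak covered the gene end of lower coordinate, with the ETV5 summit 65 bp inside it.

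Across these 9 marked starts ETV5 pileup spanned a wider range of ratios than H3K4me3 pileup. ETV5 pileup was lowest at Cldn18 with 10 fragments (interval 4.80 to 18.4), had a median of 26.0 and was highest at Cldn7 with 119 (98.6 to 142). H3K4me3 pileup ran from 207 (180 to 237) at Cldn18 over a median of 299 to 405 (367 to 446) at Cldn3. For description the genes are split into a high and a low ETV5 group, a division made after the values were seen. No interval of one group overlapped one of the other, but the cut was made on these same values, so this is no support for the split. Intervals also failed to overlap within the groups, between Cldn7 and both Epcam and Tjp1, and between Cdh1 and Cldn18. The high group was Cldn7, Epcam with 72 (56.3 to 90.7) and Tjp1 with 71 (55.5 to 89.6), and Epcam and Tjp1 could not be told apart by counting error. The low group held Cdh1 at 29 (19.4 to 41.6), Krt18 at 26 (17.0 to 38.1), Ocln at 25 (16.2 to 36.9), Krt8 at 21 and Cldn3 at 21 (13.0 to 32.1 each), and Cldn18. In this order each interval overlapped the next. Cldn3, with the highest H3K4me3 pileup, was in the low ETV5 group. Over the 9 genes the Pearson correlation between ETV5 and H3K4me3 pileup was -0.13 and the Spearman correlation -0.03, as a description of single libraries whose points share the same cells. Cldn18 was lowest in both pileups, and the correlations depend on this gene. They do not show that the pileups are unrelated.

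**Figure D2:**
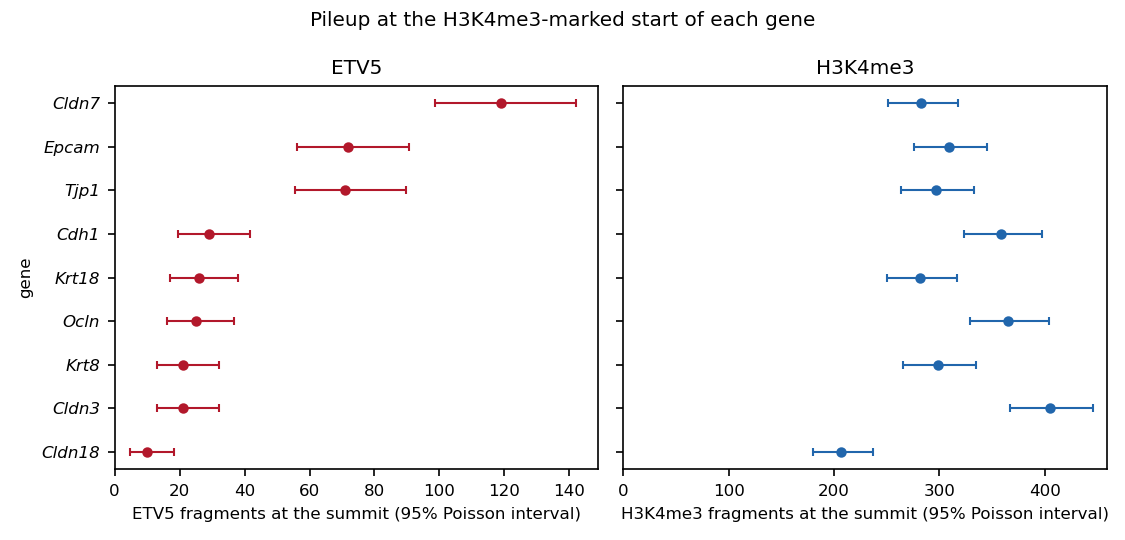
Fragments at the summit of the strongest ETV5 peak (left) and of the H3K4me3 peak (right) at the marked start of 9 genes, with exact 95% Poisson intervals; genes are ordered by ETV5. Cldn7, Epcam and Tjp1 stand at 71 to 119 ETV5 fragments and the other 6 genes at 10 to 29, while H3K4me3 runs from 207 to 405 in another order.

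Cldn7 encodes claudin-7, a tight junction claudin that also lies along the sides of epithelial cells. It had the strongest ETV5 peak of all 10 windows (chromosome 11, 69964904 to 69966992, GRCm38), of fold 53.4 and pileup 119, inside the gene. RefSeq lists 2 start sites for Cldn7, and the summit at 69965404 lay 17 bp before the inner one. The 2511-bp H3K4me3 peak (69964687 to 69967197, fold 44.5) covered both start sites, and 83.2% of its width was covered by ETV5. The ETV5 peak itself began 125 bp after the outer start site. In the other 5 ETV5 peaks of the window the nearest protein-coding gene was a neighbour, Slc2a4 on one side and Elp5 or Ctdnep1 on the other. The one at Elp5 reached fold 31.6 with 56 fragments.

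The inner start window of Cldn7 is shown because it holds the summit and is the only one of the 12 windows with the 8 letters CCGGAAGT, a long form of the ETS sequence. Capitals mark GGAA on either strand (TTCC is GGAA on the other strand). The summit is base 234 and the long match runs from base 184 to base 191 on the other strand, 43 bases away. The start windows of Tjp1 and Cldn4, from the RefSeq table of GRCm38.p6, are shown beside it. A high ETV5 peak overlaps the former and none the latter. The Tjp1 summit itself lies 272 bp after the start site, beyond the end of the window shown.
Cldn7 inner start, chr11:69965171-69965470, plus strand: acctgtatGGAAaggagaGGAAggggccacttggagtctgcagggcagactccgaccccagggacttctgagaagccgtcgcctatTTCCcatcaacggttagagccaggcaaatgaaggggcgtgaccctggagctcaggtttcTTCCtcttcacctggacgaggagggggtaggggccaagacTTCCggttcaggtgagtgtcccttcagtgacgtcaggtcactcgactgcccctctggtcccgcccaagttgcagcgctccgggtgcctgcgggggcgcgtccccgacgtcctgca
Tjp1 start, chr7:65371195-65371494, minus strand: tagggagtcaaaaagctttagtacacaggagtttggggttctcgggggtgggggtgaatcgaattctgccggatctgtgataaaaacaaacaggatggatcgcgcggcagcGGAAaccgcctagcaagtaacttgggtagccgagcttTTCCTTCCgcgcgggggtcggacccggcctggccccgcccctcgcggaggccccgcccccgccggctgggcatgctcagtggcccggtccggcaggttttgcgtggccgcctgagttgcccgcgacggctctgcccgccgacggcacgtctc
Cldn4 start, chr5:134946885-134947184, minus strand: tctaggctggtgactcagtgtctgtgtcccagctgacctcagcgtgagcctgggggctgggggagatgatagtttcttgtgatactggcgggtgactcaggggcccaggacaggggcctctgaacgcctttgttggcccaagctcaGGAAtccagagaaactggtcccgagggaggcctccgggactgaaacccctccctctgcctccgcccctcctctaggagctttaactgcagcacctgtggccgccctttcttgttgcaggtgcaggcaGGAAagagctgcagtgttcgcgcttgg

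Cldn3 and Cldn4, which encode claudin-3 and claudin-4, lie close together on chromosome 5 and differed in both marks. Cldn3 had the H3K4me3 peak of highest fold (59.4) and largest width (3953 bp, 134986065 to 134990017) among the 17, reaching 149 bp before the start site and 3803 bp after it, beyond the far end of this short gene. This H3K4me3 peak overlapped 3 ETV5 peaks. The strongest of them (134985471 to 134987825) had fold 9.79 and 21 fragments. Its summit lay 368 bp before the start site, outside the H3K4me3 peak. The others had folds of 3.38 and 8.90, and their summits lay 2494 and 3527 bp after the start site, in the annotated non-coding gene Wbscr25.

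Cldn4 had no peak of either kind in its body. The nearest ETV5 peak lay 13172 bp from its start site and the nearest H3K4me3 peak 13940 bp from it. The peaks counted for its window all lay outside the gene body. On one side these lay at Mettl27, from 11361 to 12396 bp from the body (H3K4me3 fold 24.9, ETV5 folds 7.12 and 6.01). On the other side, toward Cldn3, lay an H3K4me3 peak of fold 5.79 and 36 fragments (134965746 to 134966519) that overlapped an ETV5 peak of fold 7.78, and next to it an ETV5 peak of fold 13.7 and 27 fragments (134966747 to 134967574) outside H3K4me3. These 3 peaks belong to the windows of both claudins. At this depth a weaker ETV5 signal at Cldn4 would not have been called.

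The Cldn3 window was dense in ETV5. Its 12 peaks in 41.3 kb came to 2.91 per 10 kb, a density reached by 0.612% of protein-coding genes, against a median of 0.394 over genes with an ETV5 peak. Of the 12, 8 lay outside H3K4me3. The highest, of fold 15.1 and 36 fragments (135001189 to 135001801), had Abhd11 as its nearest protein-coding gene, and 8 of the 12 were nearest to Cldn3 itself.

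Cldn18 encodes claudin-18, which the lung and the stomach make in different forms from alternative first exons. RefSeq lists 2 start sites, and H3K4me3 covered only the inner one: the 3508-bp peak (chromosome 9, 99706726 to 99710233, fold 25.9) reached 170 bp before it and 3337 bp after it. The nearest H3K4me3 peak to the outer start site was 7034 bp away. ETV5 was weak here. A narrow peak (99710058 to 99710286) of fold 5.25 and 10 fragments lay over the inner start window with its summit 138 bp before the start site, and it covered 5.02% of the H3K4me3 width. The highest ETV5 peak of the window lay elsewhere, 5344 bp beyond the far end of the gene (99685191 to 99685826, fold 16.7, 34 fragments), outside H3K4me3 and 20299 bp from the nearest such peak, with Cldn18 as its nearest protein-coding gene.

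Both Cldn18 start windows are shown because only the inner one carried H3K4me3 and ETV5. The ETV5 summit is base 113 of the inner window, 7 bases from the nearest match to GGAA (capitals, either strand). The inner window has 4 such matches and the outer 2, and neither holds CCGGAA.
Cldn18 inner start, chr9:99710014-99710313, minus strand: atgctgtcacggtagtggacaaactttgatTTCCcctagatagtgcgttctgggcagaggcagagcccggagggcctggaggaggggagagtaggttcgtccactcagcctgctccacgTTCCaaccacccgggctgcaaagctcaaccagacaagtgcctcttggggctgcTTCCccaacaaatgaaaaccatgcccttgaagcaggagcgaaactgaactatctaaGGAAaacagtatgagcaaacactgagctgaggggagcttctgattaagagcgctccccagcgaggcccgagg
Cldn18 outer start, chr9:99717218-99717517, minus strand: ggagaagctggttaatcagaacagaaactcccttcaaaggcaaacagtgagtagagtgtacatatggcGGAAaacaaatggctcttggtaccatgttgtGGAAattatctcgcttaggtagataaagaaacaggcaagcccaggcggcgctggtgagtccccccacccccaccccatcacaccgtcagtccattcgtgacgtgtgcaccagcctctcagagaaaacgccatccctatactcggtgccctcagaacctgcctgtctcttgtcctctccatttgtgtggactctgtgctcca

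Ocln encodes occludin, a four-pass membrane protein of tight junctions. Its 2565-bp H3K4me3 peak (chromosome 13, 100551111 to 100553675, fold 50.6, 365 fragments) covered both listed start sites. The ETV5 peak there (100551488 to 100552988) had fold 12.7 and 25 fragments, with its summit 50 bp before the inner start site. A stronger ETV5 peak, of fold 31.9 and 66 fragments (51.0 to 84.0), lay 3936 bp beyond the far end of Ocln under an H3K4me3 peak of fold 45.5, and its nearest gene was Gtf2h2, which encodes a subunit of a general transcription factor. The highest fold of the Ocln window therefore belongs to a neighbour's promoter region, and the peak at the start of Ocln was in the low ETV5 group.

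Tjp1, the ZO-1 gene, is the longest of the 10, and its listed start site lies far inside the annotated body. The ETV5 peak at that start (chromosome 7, 65370747 to 65371577) had fold 44.3 and 71 fragments, and its summit 272 bp after the start site was 29 bp from the H3K4me3 summit, the closest pair of the 9. The H3K4me3 peak (65368892 to 65371748) had fold 37.2. At the upper-coordinate end of the annotated body, weak peaks of both kinds overlapped, ETV5 with fold 6.65 and 10 fragments and H3K4me3 with fold 4.08 and 25 fragments. Epcam and Tjp1 show how fold and pileup differ: at 72 and 71 fragments their folds were 25.4 and 44.3, because the background used was 1.87 fragments at Epcam and 0.624 at Tjp1.

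Epcam had 1 peak of each kind, one over the other. The ETV5 peak (chromosome 17, 87635972 to 87637381, fold 25.4) covered 75.1% of the H3K4me3 peak (87635845 to 87637722, fold 48.6), and its summit lay 1141 bp after the start site, inside the gene and 167 bp from the H3K4me3 summit. No other ETV5 peak lay in its window.

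Cdh1 combined a strong H3K4me3 peak with many weak ETV5 peaks. The H3K4me3 peak (chromosome 8, 106602875 to 106605191) had fold 55.7 and 359 fragments, and the ETV5 peak over it (106602704 to 106604347) had fold 12.2 and 29 fragments. A further 8 ETV5 summits lay inside the gene and outside H3K4me3, from 2671 to 23328 bp from the nearer gene end, with folds of 4.90 to 6.87 and 8 to 13 fragments. Whether they lay in exons or introns was not analysed here. With intervals such as 3.45 to 15.8 for 8 fragments, these 8 peaks could not be ranked. The remaining ETV5 peak of the window, of fold 5.79, lay at Tango6 within H3K4me3 of fold 37.6.

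Krt8 and Krt18 lie head to head on chromosome 15, transcribed away from each other, with an interval between them that holds the strongest ETV5 peak outside H3K4me3 of all 10 windows. At their starts both genes carried both marks. The H3K4me3 peaks had folds of 41.4 at Krt8 (102002030 to 102004502) and 35.3 at Krt18 (102027706 to 102029933). The ETV5 peaks over them had folds of 12.1 (102002901 to 102004753) and 11.7 (102028145 to 102029080), with 21 and 26 fragments. The ETV5 summit lay 1075 bp after the start site at Krt8 and 140 bp after it at Krt18.

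Between the keratin genes, an ETV5 peak (102016098 to 102017072) reached fold 39.2 with 79 fragments (62.5 to 98.5), more than at either start, and the intervals did not overlap. Its summit lay 12062 bp before the start site of Krt8 and 11812 bp before that of Krt18, in the annotated non-coding gene Gm41404, and the nearest H3K4me3 peak was 10634 bp away. It ranked 37 by fold among the 15927 ETV5 peaks outside H3K4me3, of which 7.48% had a fold of at least 10. On the far side of Krt8, inside the annotated body of Krt78, lay another such peak (101984193 to 101985014) of fold 22.0 and 53 fragments, 17016 bp from the nearest H3K4me3 peak. The Krt8 window held 10 ETV5 peaks, a density per kb reached by 2.06% of genes, and only 1 of the 10 overlapped H3K4me3.

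Over all 10 genes, 18 of the 52 ETV5 peaks overlapped H3K4me3 (34.6%, Clopper-Pearson interval 22.0 to 49.1), against 48.9% of all ETV5 peaks on assembled chromosomes, a value inside that interval. Conversely, 15 of the 17 H3K4me3 peaks overlapped ETV5 (88.2%, 63.6 to 98.5), against 84.2% of all. Both intervals treat peaks as independent, but the Cldn3 window alone held 12 ETV5 peaks and those of Cdh1 and Krt8 10 each. The intervals are therefore no test against the whole lists. The 18 peaks overlapping H3K4me3 had a median fold of 11.9 and ran from 3.38 (Cldn3) to 53.4 (Cldn7). The 34 outside had a median of 5.81 and ran from 3.43 to 39.2 (both between Krt8 and Krt18). Over the whole list these medians were 11.1 and 5.30. Peaks of fold of at least 10 outside H3K4me3 numbered 6: the one between the keratin genes, the one in Krt78, the one beyond Cldn18, and those at 13.7, 15.1 and 10.2 in the Cldn3 window. The nearest protein-coding gene was one of the 10 for 37 of the 52 peaks. Counts depended on the threshold: with only peaks of fold of at least 10 in both lists, 16 ETV5 peaks remained and 62.5% overlapped H3K4me3. The 48.9% is for peaks of any fold and cannot be set beside this share. The share over all ETV5 peaks at this threshold was not computed. Over the whole list 7.48% of peaks outside H3K4me3 reached that fold, and the median fold of those overlapping it was 11.1.

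**Figure D3:**
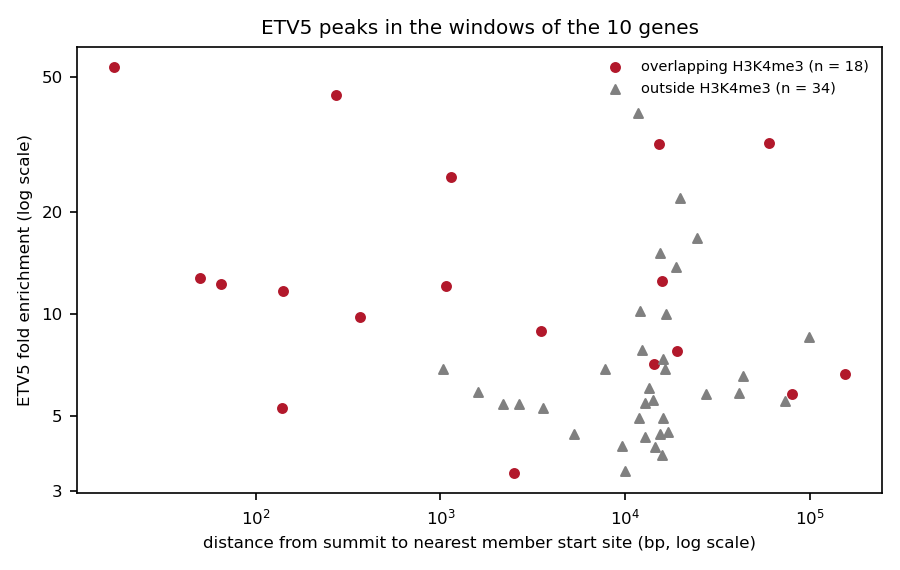
ETV5 fold enrichment (vertical, log scale) of the 52 ETV5 peaks against the distance in bp (horizontal, log scale) from the summit to the nearest start site of a gene whose window holds the peak; for Cdh1 the gene end of lower coordinate was used. Circles overlap H3K4me3 (18) and triangles do not (34); the triangle of fold 39.2 is the peak between Krt8 and Krt18.

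The limit of 20 kb decided a few peaks. Just inside it, 19813 bp from the Cldn4 body, lay the ETV5 peak of fold 13.7, and just outside, 20246 bp from Cldn3, lay one of fold 25.4. A peak of fold 19.1 lay 20674 bp from Epcam. Among H3K4me3 peaks the one of fold 5.79 was inside at 19695 bp from Cldn3, and outside lay one of fold 3.76 at 20084 bp from Krt18 and one of fold 42.5 with 270 fragments at 20710 bp from Epcam.

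Letters known from binding sites were counted in the 12 start windows, on both strands, beside all 32851 windows of the table. GGAA was in 11 of the 12 and in 96.0% of all, with Cldn3 the exception. CCGGAA, which contains it, was in 3 (both Cldn7 windows and the outer Ocln window, which overlaps the inner one in part) and in 14.9% of all, and CCGGAAGT, which contains both, was in 1 and in 3.89%. Over all genes CCGGAA was present in 43.7% of the 5541 windows that held an ETV5 summit and in 9.06% of the others, and GGGCGG, letters bound by SP factors, in 72.1% and 28.3%. GGGCGG was in 7 of the 12 and in 35.7% of all. The E-box CACCTG, which the repressors SNAIL and ZEB bind, was in 8 of the 12 and in 20.2% of all. Among the 8 were the windows of Epcam, Cldn3, Cldn4, Krt8 and Krt18. A match in the stretch that both Ocln windows share was counted in each of them. CAAGTG, letters bound by NKX2-1, was in 2 (the inner windows of Cldn7 and Cldn18) and in 13.6%, and AACCNGTT, of Grainyhead-like factors, in 0 and in 2.09%. The GC content of the 12 windows ran from 52.0 to 68.0%, against a median of 52.7% over all (quartiles 45.7 and 61.7), and base composition alone moves such counts.

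Other genes of the same structures were read in the same windows. Over all genes 68.6% had ETV5 and 66.0% had H3K4me3 there, and H3K4me3 covered a start of 53.3% of genes with start windows. Of 18 further tight junction genes 17 had ETV5 and all 18 had H3K4me3, with ETV5 folds of 133 at Tjp3 (nearest gene Pip5k1c), 83.1 at Lsr and 68.2 at Crb3, and with none at Mpdz. Of 12 further adherens junction genes 11 had ETV5 and 10 had H3K4me3, among them the nectin genes Nectin2 (58.1) and Nectin3 (51.0), while Cdh2, which encodes N-cadherin, had neither. Of 10 desmosome genes 8 had ETV5 and 8 had H3K4me3, led by Evpl (33.4) and Pkp2 (30.0) and without Dsc2 and Pkp1. Of 19 other claudins 10 had ETV5 and 9 had H3K4me3, beside the shares of 68.6% and 66.0% over all genes, and H3K4me3 covered a start of 2 of the 15 with start windows, Cldn10 and Cldn12 (Cldn10 is named for this after its values were seen). Cldn6 and Cldn9 shared an ETV5 peak of fold 41.8 nearest to Tnfrsf12a, Cldn12 had 34.5 and Cldn15 had 32.6 (nearest Plod3), and Cldn1, Cldn11 and Cldn16 were among those without.

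Keratins were read in 2 lists. Among all genes 68.6% had ETV5 and 66.0% had H3K4me3 in such windows, and 51.5% and 53.3% over a start window. Of 4 further keratins of simple epithelia, Krt19 (21.8), Krt7 (11.1) and Krt23 (10.6) had ETV5 and H3K4me3, and Krt20 had neither. Of 11 keratins of stratified epithelia, 4 had ETV5 and 3 had H3K4me3: Krt10 (51.4), Krt15 through the peak nearest to Krt19, Krt4 (6.06, nearest Krt79) and, for ETV5 alone, Krt1 (4.89). None of the 4 stratified keratins with start windows had either mark there, and Krt13, Krt14 and Krt16 had no ETV5 peak at all.

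Of 9 regulators of epithelial genes all 9 had ETV5 and 8 had H3K4me3, with folds of 23.4 at Grhl2 and 20.7 at Esrp2, and 33.9 at Esrp1 and 23.5 at Ovol1 through peaks nearest to Dpy19l4 and Ap5b1. Of 6 repressors of epithelial genes, 3 had ETV5 and 3 had H3K4me3, with Zeb1 the one gene in both counts. ETV5 folds were 12.6 at Zeb1, 12.4 at Snai1 and 4.89 at Twist2, and Snai2, Twist1 and Zeb2 had no ETV5 peak. H3K4me3 reached fold 13.8 at most among them, at Zeb1. For both lists the shares over all genes were 68.6% with ETV5 and 66.0% with H3K4me3.

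**Figure D4:**
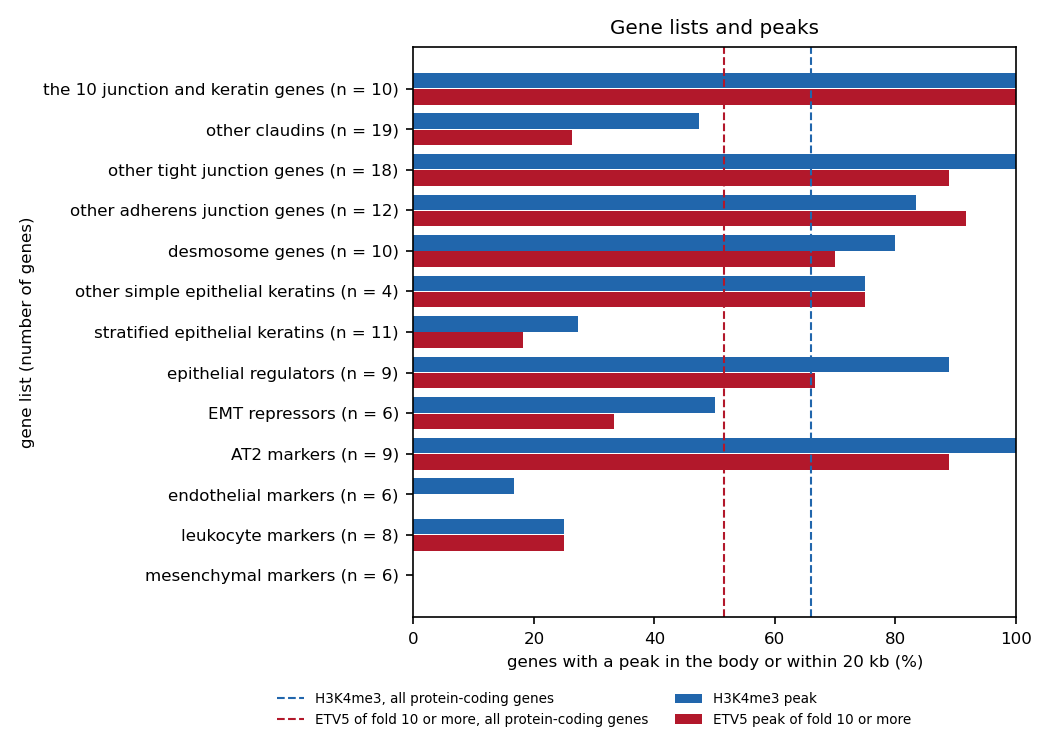
Share of the genes of each list (%, horizontal) with an H3K4me3 peak (blue) and with an ETV5 peak of fold of at least 10 (red) in the body or within 20 kb, with the number of genes in parentheses and dashed lines at the shares over all protein-coding genes (66.0% and 51.5%). The 10 junction and keratin genes are at 100% for both, and the other claudins and the stratified keratins lie below the dashed lines.

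The labelled cell type was checked on markers. All 9 AT2 markers had ETV5 and H3K4me3, with ETV5 folds of 117 at Sftpb, 32.9 at Nkx2-1, 28.2 at Napsa (nearest gene Nr1h2) and 24.4 at Abca3 (nearest gene Rnps1), and H3K4me3 covered a start of all 6 that had start windows. At starts of other cells' markers H3K4me3 was not called: it covered 0 of 3 endothelial, 0 of 5 leukocyte and 0 of 4 mesenchymal genes with start windows, and ETV5 none of them either. In the wider windows H3K4me3 was found at 1 of 6 endothelial, 2 of 8 leukocyte and 0 of 6 mesenchymal genes. ETV5 was found at 4 of 6 (Tie1 highest, 6.17), 2 of 8 (Cd79a highest, 60.5, nearest Arhgef1) and 3 of 6 (Pdgfra highest, 6.87). The shares over all genes were 68.6% for ETV5 and 66.0% for H3K4me3 in the wider windows, and 51.5% and 53.3% at start windows.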

How the data were processed

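Chromatin immunoprecipitation and sequencing was read from 2 deposited peak lists, grouped by the antibody in the labels. Per the file headers, the authors called peaks per library with MACS2 2.1.0.20150420 at a q-value of 0.05, keeping 1 tag per position. ETV5 had 75-bp tags and a fragment length of 203 bp, H3K4me3 50-bp tags and 288 bp. Input tags numbered 27495486 and 44758677, and per the file headers the ETV5 input carries another name than the labelled input. The deposited pileup signal is the fragment number at the summit, and since the input was larger, the ChIP counts are unscaled (all whole numbers). The fold enrichment ratio and the −log10 p-value and q-value are as deposited by the authors, and ETV5 folds cannot be set against H3K4me3 folds, since depth and background differ. An aligner is named in none of the sources used here. The labels name mm9, but 64.3% of H3K4me3 summits lay within 1 kb of a GRCm38 start site, against 2.33% after moving the list by 5 Mb, so positions are given as GRCm38.

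Genes and start windows came from the RefSeq tables of GRCm38.p6; exons were not used here. Overlap meant at least 1 bp. A nearest gene contained the summit or had the closest body. Work used Python 3.11.15, numpy 2.4.6, pandas 2.3.3, scipy 1.17.1 and matplotlib 3.10.9, and steps were tested on simulated intervals. The genes and lists were chosen with earlier results of these data known. All 10 genes are named, and from each other list up to 4 genes of highest ETV5 fold and up to 3 without ETV5; Cldn10 was added after its values were seen.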

Additional observations from a re-analysis of the deposited data

How the results depend on the processing

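All 10 genes kept an ETV5 and an H3K4me3 peak under stricter thresholds, wider windows and nearest-gene assignment, and 9 did within gene bodies or 5 kb, where Cldn4 had none. Cldn4 was kept only through peaks outside its body. By nearest gene these had folds of 7.78 (ETV5) and 5.79 (H3K4me3). At fold of at least 10 they lay nearest to Cldn3 (ETV5, 13.7) and Mettl27 (H3K4me3, 24.9). Among these settings, a share over all genes was computed only for ETV5 of fold of at least 10 (51.5%). The number of ETV5 peaks changed from 52 to 22 in gene bodies, 29 within 5 kb, 81 within 50 kb, 23 at −log10 q of at least 10 and 16 at fold of at least 10, and that of H3K4me3 peaks from 17 to 33 within 50 kb. The median highest ETV5 fold changed from 28.7 to 12.2 in gene bodies, 16.7 within 5 kb and 15.2 with nearest-gene peaks. The share of ETV5 peaks overlapping H3K4me3 changed from 34.6% to 56.5% at −log10 q of at least 10 and to 62.5% at fold of at least 10. Shares over all ETV5 peaks at these thresholds were not computed. These changes follow from which peaks each setting keeps. At fold of at least 10, genes with an ETV5 peak overlapping H3K4me3 numbered 7 of 10. Genes with ETV5 over a start window numbered 6 of the 9 with such windows (added after the data were seen). The share over all genes at this threshold was not computed for either count. Depth of the ETV5 library limits its weak peaks, since 8 fragments have an interval of 3.45 to 15.8. No paired analysis was possible because each antibody has 1 library.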
